A study of Macaca fascicularis with 3 samples.

Results

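The barcodes described here are the T and natural killer (NK) lymphocytes of a whole-cell library from extraocular muscle (EOM), the muscle that moves the eye, of the crab-eating macaque, Macaca fascicularis. A barcode was chosen when at most 20% of its unique molecular identifiers (UMIs, tags that count each RNA molecule once) were mitochondrial and it held at least 3 UMIs over 8 lymphocyte genes, with at least 2 of these genes seen. The 8 genes were CD3D, CD3E, CD3G, CD2, CD96, NKG7, KLRD1 and GZMB. The rule found 585 of 7316 kept barcodes, or 8.0% (95% Clopper-Pearson interval 7.38% to 8.64%). Of these, 521 had a UMI of CD3D, CD3E or CD3G and are called CD3 positive, and 64 had none and are called CD3 negative.

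The study holds 3 libraries, 1 per group: EOM whole cells, EOM nuclei, and nuclei from a thigh muscle, the quadriceps femoris (QFM). All carry the labels of the same species with no genotype, treatment or age, and the number of animals behind each is not given in the sources used here. With 1 library per group there is no replicate, so every interval below covers counting error only and no test was made. Levels are counts per 1000000 UMIs (CPM) of the UMIs summed over a class of barcodes, and ratios are log2 ratios of CPM with a 95% exact binomial interval.

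T cells recognise antigen through a T cell receptor that signals through the CD3 chains, and the coreceptors CD8 and CD4 divide them into killer and helper lineages. NK cells kill without that receptor and use lectin-like and Fc receptors instead, with adaptors such as TYROBP, HCST and FCER1G. Both kill by releasing granules of perforin, granzymes and granulysin, and both are found in skeletal muscle in small numbers. In macaques many NK cells also carry the alpha chain of CD8, whereas the beta chain is typical of T cells.

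The EOM whole-cell library held 8979 barcodes and 12248405 UMIs, and no kept barcode had under 500 UMIs. The T and NK barcodes were shallow, with a median of 692 UMIs and 435 genes, against 1217 UMIs in the other 6731 kept barcodes. CD3 positive barcodes had a median of 702 UMIs and CD3 negative barcodes 634.5. Mitochondrial UMIs made up a median of 10.7% in the T and NK barcodes and 12.1% in the others. A doublet caller, Scrublet, marked 38 T and NK barcodes (6.50%) and 2.65% of all kept barcodes, and these were kept.

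Among the rule genes, whose levels chose the barcodes and are given as a description, GZMB gave 1838 UMIs, NKG7 906, CD3D 887, CD3G 495, KLRD1 262, CD2 213, CD3E 167 and CD96 38. The rule-gene sum per barcode had a median of 7 UMIs and a highest value of 35. Just inside the threshold, 49 barcodes held exactly 3 UMIs, and their CCL5 level was 3449 CPM. Just outside it, 36 barcodes held 2 UMIs of 2 genes, with CCL5 at 1862 CPM and the fibroblast gene DCN at 2607 CPM. A further 19 barcodes held 3 or more UMIs of a single rule gene, and 45 met the UMI rule but exceeded the mitochondrial limit.

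**Figure D1:**
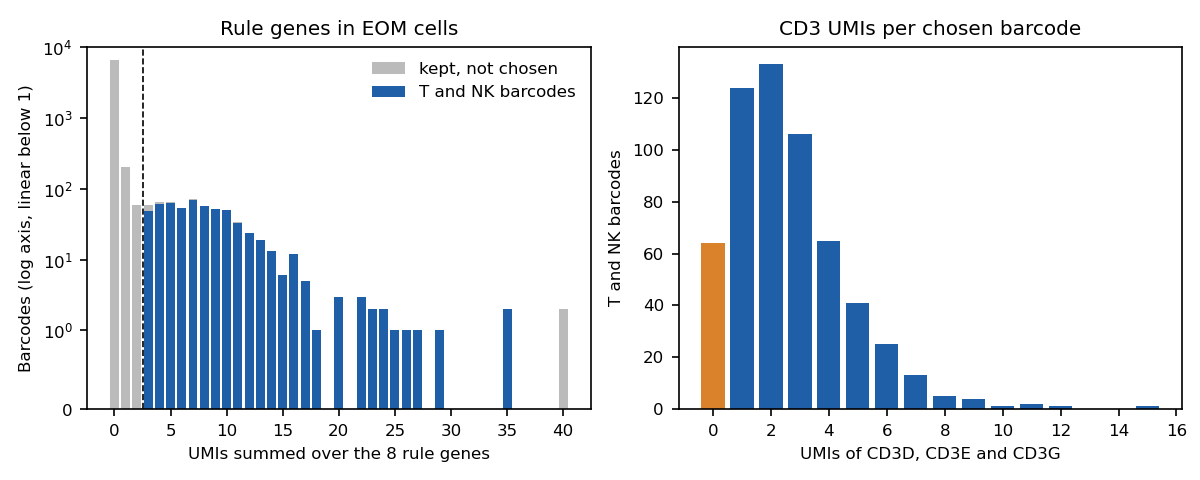
Left, number of kept EOM barcodes (log axis, linear below 1) against UMIs summed over the 8 rule genes, with the T and NK barcodes in blue, the others in grey and the dashed line at the threshold. Right, number of T and NK barcodes against UMIs of the 3 CD3 genes, with the 64 CD3 negative barcodes in orange. CD3 counts were low in most barcodes: 124 CD3 positive barcodes held 1 UMI and 133 held 2.

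The label was checked on genes the rule did not use. The features LOC102133263 and LOC102137723, which a RefSeq gene table of the species lists as antigen receptor constant regions, gave 827 and 494 UMIs in the T and NK barcodes. Their levels were 1634 and 976 CPM, against 18.8 and 16.1 CPM in the other cells. At least 1 UMI of either was seen in 79.5% of CD3 positive barcodes, 1.87% of myeloid barcodes and 1.42% of endothelial barcodes. These 2 had the most UMIs in the T and NK barcodes of the constant regions listed, which favoured a high level there in advance. Another, LOC102128706, went the other way: 15.8 CPM in these barcodes, 228 CPM in the other cells and 1685 CPM in myeloid barcodes. A constant region UMI below means a UMI of LOC102133263 or LOC102137723. The T cell receptor genes TRAC, TRBC1, TRBC2, TRDC, TRGC1 and TRGC2 could not be matched by name and were not analysed here, and which chains the 2 features encode was not determined.

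The CD3 negative barcodes carried T cell RNA as well. A constant region UMI was seen in 51 of the 64 (79.7%, interval 67.8% to 88.7%), and a UMI of CD5, CD6, CD27, TRAT1, LAT, BCL11B or THEMIS in 34. Taken over both, 55 of 64 held such RNA (85.9%), against 92.9% of CD3 positive barcodes and 2.72% of endothelial barcodes. Constant region RNA can also come from unrearranged receptor genes in NK cells, so it does not by itself mark a T cell. Over all 585 barcodes, 13 (2.22%) had neither a CD3 nor a constant region UMI, and 4 of those 13 had KLRF1.

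The data therefore did not show the CD3 negative barcodes to be NK cells. The NK receptor NCR1 and the gene NCAM1 (CD56) had 0 UMIs in the CD3 negative barcodes. In this library NCAM1 was seen in 10.1% of myeloid barcodes, and NCR1 in only 1 barcode outside the T and NK ones. Neither 0 can therefore tell whether these barcodes are NK cells. With only 47071 UMIs in that class, a count of 0 allows up to 63.7 CPM (3 counts), so neither 0 shows that the genes were off. In CD3 positive barcodes NCR1 had 0 UMIs and NCAM1 had 4. FCER1G with TYROBP was found in 7 CD3 negative barcodes, 5 of which had a constant region UMI, and in 11 CD3 positive ones. The classes are called CD3 positive and CD3 negative below for that reason.

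Depth moved with the CD3 split. Of the barcodes at or above the median depth, 93.9% were CD3 positive, and of those below it, 84.2%. With each barcode thinned to 500 UMIs, 76.2% kept a CD3 UMI. The rule itself counts CD3 genes: among the 442 barcodes that passed on the other 5 genes alone, 378 (85.5%) were CD3 positive.

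RNA of other cell classes was present. The 10 myeloid markers summed to 231 CPM in the T and NK barcodes against 10163 CPM in myeloid barcodes. The 8 fibroblast markers summed to 1035 against 6950 CPM in the other cells, and the 8 mural (vessel wall) markers to 2004 against 10830 CPM. These fibroblast and mural sums were above those of myeloid barcodes (539 and 943 CPM) and endothelial barcodes (856 and 1289 CPM). Endothelial markers summed to 563 CPM, against 723 CPM in myeloid barcodes. DCN was at 696 CPM and ACTA2, a smooth muscle actin, at 1308 CPM. Of the defining B cell and mast cell markers, MS4A1, KIT and MS4A2 were at 0. At least 3 UMIs over 2 or more markers of the myeloid, endothelial, fibroblast or mural lists were held by 58 T and NK barcodes (9.91%), whose median depth was 1961.5 UMIs. The part of free RNA in the results was not tested. Without those 58 barcodes, 22 of the gene ratios followed against the other cells moved out of their interval and 91 did not. Against myeloid barcodes 13 moved and 96 did not, and between the CD3 classes 2 moved and 97 did not.

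Against the other EOM cells, 1694 of 13229 genes were at least 2-fold higher in the T and NK barcodes (12.8%) and 3341 at least 2-fold lower (25.3%), where a gene had at least 20 UMIs in all. The median ratio over all genes was -0.15. Asking that the whole interval lie past 2-fold left 613 genes (4.63%) and 834 (6.3%). The interval lay above 0 for 2232 genes (16.9%) and below 0 for 2869 (21.7%). Without the 58 barcodes that held markers of other classes, 2021 genes were at least 2-fold higher and 3297 lower. The gene lists below are read against the shares of 12.8% and 25.3%.

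Genes that signal below the T cell receptor were higher in the T and NK barcodes wherever they could be compared. Of 16 genes of this list, 13 had enough UMIs to compare, and all 13 were at least 2-fold higher, with a median ratio of 5.90. The rule counted CD3D, CD3E, CD3G, CD2 and CD96, so T cell genes found together with these were favoured in advance. LAT, the membrane scaffold of receptor signalling, was at 522 CPM against 8.03 CPM in the other cells (ratio 6.02, 5.65 to 6.41) and was seen in 34.0% of the barcodes. SKAP1, an adaptor of integrin activation, was at 298 CPM, and CD6, a surface regulator of the receptor, at 182 CPM. The costimulatory receptor CD27 was at 176 CPM and CD247, the zeta chain of the receptor complex, at 156 CPM. BCL11B, a transcription factor of T cell commitment, was at 119 CPM against 1.56 CPM (ratio 6.24, 5.41 to 7.17). The kinase ZAP70 was at 119 CPM, whereas the kinase LCK gave only 8 UMIs (15.8 CPM) and FYN gave 0 in every class of the library, including the T and NK barcodes.

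UMIs of CD8 were far more common than those of CD4 in these barcodes. The rule counted GZMB, NKG7 and KLRD1, genes of killer lymphocytes, so it could favour CD8 barcodes. How far it did so was not tested. CD8A was at 407 CPM (206 UMIs, highest 4 in a barcode) and CD8B at 287 CPM (145 UMIs), against 4.79 and 3.44 CPM in the other cells. Their ratios were 6.41 (5.94 to 6.90) and 6.38 (5.83 to 6.97). CD4 gave 11 UMIs (21.7 CPM), a level 6.45-fold below that of the myeloid barcodes, which also express CD4 (140 CPM). Of the 521 CD3 positive barcodes, 206 had CD8 without CD4 (39.5%, interval 35.3% to 43.9%), 10 had CD4 without CD8 (1.92%, 0.924% to 3.5%), 1 had both and 304 had neither. In classes that should lack CD8, a UMI of CD8A or CD8B was found in 0.532% of endothelial barcodes (median depth of that class 1095 UMIs) and 0.748% of myeloid barcodes (2292 UMIs). The 304 barcodes with neither coreceptor had a median of 692.5 UMIs, and at that depth a missing UMI does not show that the gene was off. The CD4 class was too small (10 barcodes, under the minimum of 30) for a comparison with the CD8 class.

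The cytotoxic granule genes stood far above the other cells. The rule chose barcodes partly by GZMB, itself a granule gene, and by NKG7 and KLRD1. Genes found together with these were therefore favoured in advance, here and among the killer-cell receptors below. The ratios describe the chosen barcodes. Of 12 compared, 10 passed 2-fold upwards, 1 downwards and 1 neither, with a median ratio of 6.67. GZMH, a granzyme of effector lymphocytes, was at 1259 CPM against 7.40 CPM (ratio 7.41, 7.05 to 7.78), with 0 to 11 UMIs a barcode and a median of 1. Granulysin, GNLY, which permeabilises membranes, was at 1276 CPM against 8.55 CPM (ratio 7.22, 6.89 to 7.57). GNLY was uneven, with 330 of 585 barcodes at 0 and a highest value of 18. CST7, an inhibitor of granule proteases, was at 1029 CPM and GZMM at 391 CPM. GZMK, the granzyme of transitional memory cells, was at 182 CPM and was seen in 65 barcodes (11.1%). Perforin, PRF1, was at 107 CPM (54 UMIs) and GZMA at 67.2 CPM (34 UMIs, against 2 UMIs in the other cells; ratio 8.33, 6.37 to 11.44). The exceptions were CTSC, the protease that activates granzymes, at 115 against 441 CPM, and LAMP1, a lysosome membrane protein found in all cells, at 257 against 307 CPM.

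For 3 pairs of granule genes, detection of one was compared between barcodes with and without the other. GZMH was seen in 61.5% of barcodes with GZMK (40 of 65) and in 56.9% of those without it. GZMH was seen in 58.0% of barcodes with GNLY and 57.0% of those without, and GNLY in 50.8% of barcodes with GZMK and 42.7% of those without. The intervals of each pair overlapped, which does not show that the rates were alike.

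CCL5, a chemokine stored in effector T cells, was found in most of the barcodes. It gave 2171 UMIs (4290 CPM, interval 4111 to 4474) against 34.3 CPM in the other cells, a ratio of 6.97 (6.80 to 7.14). It was seen in 486 barcodes (83.1%), with 0 to 30 UMIs and a median of 3. CCL3, which macrophages make too, was at 862 CPM, above the other cells (333 CPM) but 2.67-fold below the myeloid barcodes (2298 CPM), and 34 of its 436 UMIs were in 1 barcode. XCL1, a chemokine that draws dendritic cells, gave 20 UMIs, 10 of them in 1 barcode. CXCL8 (109 CPM) and CXCL10 (1.98 CPM, 1 UMI) were lower than in the other cells (528 and 34.6 CPM).

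**Figure D2:**
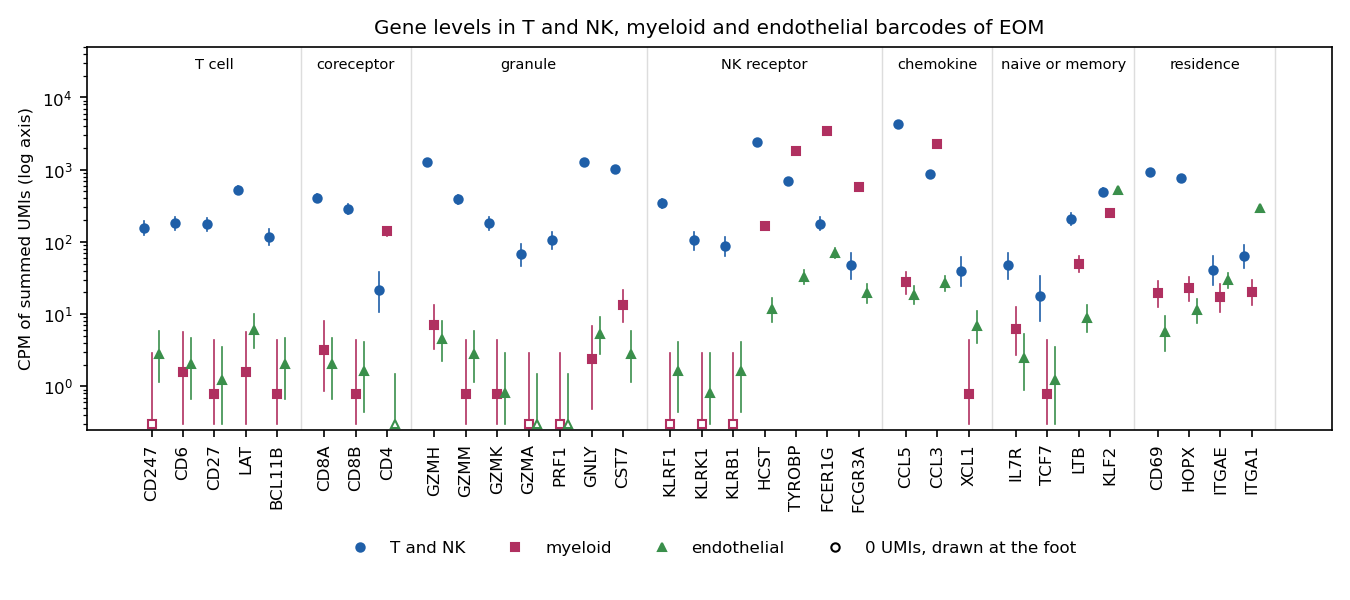
CPM of summed UMIs (log axis) with 95% Poisson intervals for genes grouped by role, in T and NK barcodes (circles), myeloid barcodes (squares) and endothelial barcodes (triangles) of the EOM whole cells; open symbols at the foot mark 0 UMIs. CCL5, at 4290 CPM, and the granule and CD8 genes lie far above both other classes, whereas CD4, TYROBP, FCER1G and FCGR3A are highest in the myeloid barcodes.

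Receptors shared by NK cells and killer T cells were high, while the Fc receptor genes were not. Of 14 genes of this list, 10 passed 2-fold upwards, 3 downwards and 1 neither, with a median ratio of 5.75. HCST (DAP10), the adaptor of KLRK1, was at 2383 CPM and was seen in 78.8% of barcodes. SLAMF7, an activating receptor, was at 462 CPM, KLRF1 (NKp80) at 344 CPM, KLRK1 (NKG2D) at 105 CPM, KLRG1 at 103 CPM and KLRB1 (CD161) at 86.9 CPM. KLRF1 had a ratio of 7.10 (6.48 to 7.78). By contrast FCER1G, the Fc receptor gamma chain, was at 180 CPM against 607 CPM in the other cells and 3489 CPM in myeloid barcodes. FCGR3A (CD16) was at 47.4 CPM against 115 and 577 CPM.

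KLRF1, usually read as an NK receptor, was found on barcodes with T cell RNA. Of its 132 barcodes (22.6%), 122 had a CD3 UMI (92.4%, interval 86.5% to 96.3%), 102 a constant region UMI (77.3%) and 51 a CD8 UMI (38.6%). In the 453 barcodes without KLRF1 these shares were 88.1%, 80.1% and 41.1%. The intervals overlapped for all 3 markers. The median depth was 755.5 UMIs for the KLRF1 barcodes.

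Detection was compared with all barcodes thinned to 500 UMIs, since myeloid barcodes were deeper (median 2292 UMIs). CCL5 was then seen in 75.4% of T and NK barcodes, HCST in 67.2%, GZMH in 46.0%, CST7 in 40.7%, GNLY in 34.9%, CD69 in 34.0% and CD8A in 20%. In endothelial barcodes none of these 7 genes was seen in over 0.769%. TYROBP was seen in 20% of T and NK barcodes and 61.5% of myeloid barcodes, and CD4 in 1.03% and 9.35%.

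**Figure D3:**
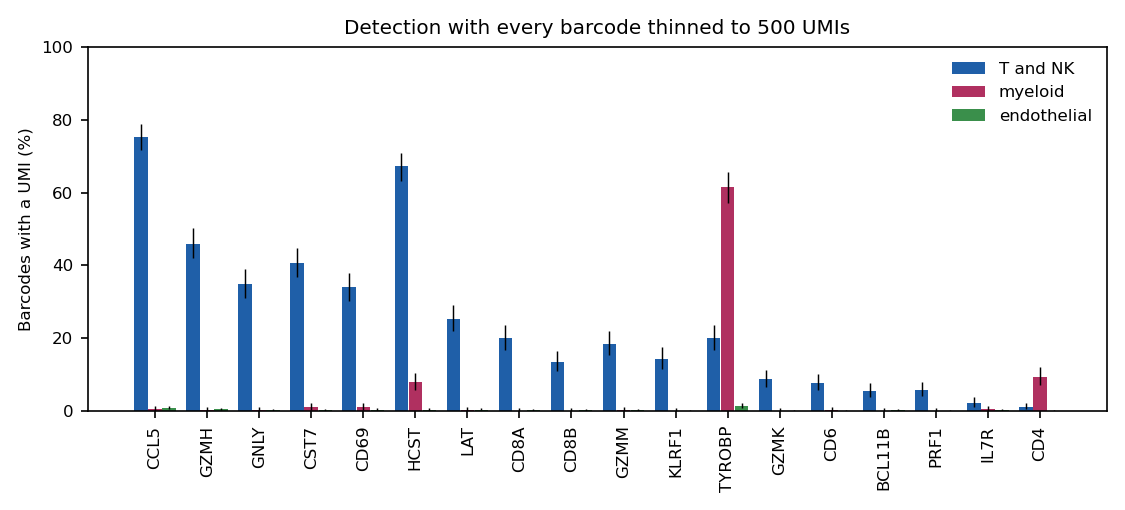
Share of barcodes with a UMI (%), with 95% Clopper-Pearson intervals, after each barcode was thinned to 500 UMIs, for T and NK, myeloid and endothelial barcodes. CCL5 leads at 75.4% of T and NK barcodes, and TYROBP and CD4 are more often seen in myeloid barcodes.

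Genes of naive and recirculating cells had no common direction. Of 9 compared, 2 passed 2-fold upwards, 2 downwards and 5 neither, with a median ratio of -0.47. IL7R, the receptor that keeps naive and memory cells alive, was at 47.4 CPM (24 UMIs) and the transcription factor TCF7 at 17.8 CPM (9 UMIs), the 2 that were higher. CCR7, a chemokine receptor that guides cells to lymph nodes, was at 0. KLF2, a factor that keeps lymphocytes recirculating, was at 490.0 CPM against 321 CPM and was seen in 178 barcodes (30.4%). LTB, a cytokine of resting lymphocytes that was counted with the cytokines, was at 207 CPM.

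Genes linked to residence in tissue gave a divided picture. Of 9 compared, 5 passed 2-fold upwards, 2 downwards and 2 neither. CD69, which holds lymphocytes in tissue and also marks recent activation, was at 921 CPM against 16.7 CPM (ratio 5.79, 5.52 to 6.06) and was seen in 263 barcodes (45.0%). HOPX, a regulator of effector memory cells, was at 759 CPM, RGS1, which dampens chemokine signals, at 504 CPM, and PRDM1 (Blimp-1) at 140 CPM. The integrin genes of resident cells were sparse: ITGAE (CD103) had 21 UMIs, ITGA1 (CD49a) had 32, and 34 barcodes (5.81%) had either. CXCR6 and ZNF683 were at 0 in the T and NK barcodes and in every other class of the library, so their 0 does not set these barcodes apart.

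Among transcription factors, 12 of 16 passed 2-fold upwards, 1 downwards and 3 neither, with a median ratio of 2.10. TBX21 (T-bet), which drives the killer program, was at 61.3 CPM (ratio 5.88, 4.81 to 7.07), RUNX3, which maintains CD8 lineage identity, at 111 CPM, ETS1 at 298 CPM and ID2 at 972 CPM. EOMES gave 11 UMIs. FOXP3, of regulatory T cells, gave 0 UMIs, which allows up to 5.93 CPM. ID3 was the lower one, at 55.3 against 339 CPM.

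Most cytokines and cytokine receptors that could be compared were higher than in the other cells. IL2RG, the chain shared by interleukin receptors, was at 895 CPM against 25.02 CPM, and the regulatory cytokine TGFB1 at 688 against 81.3 CPM. Of 11 genes of this list, 9 passed 2-fold upwards, 1 downwards and 1 neither, with a median ratio of 1.88. IFNG, the main cytokine of killer cells, gave 25 UMIs in 23 barcodes (49.4 CPM against 0.521 CPM) and TNF gave 48 UMIs (94.8 CPM). IL2, IL17A and CSF2 were at 0 in every class. Of the homing receptors, 4 of 8 were at least 2-fold higher and 0 lower, CXCR4 among the higher ones at 229 CPM. Against myeloid barcodes, 2 of 7 homing receptors were at least 2-fold higher and 3 lower. Of the cytokine list, 4 of 8 genes were then higher and 1 lower. Of the inhibitory receptors TIGIT was at 94.8 CPM (48 UMIs), LAG3 had 9 UMIs, CTLA4 had 8, HAVCR2 had 3 and PDCD1 had 0.

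Genes of leukocyte movement and adhesion were higher without exception: all 18 of the list, with a median ratio of 2.77. CD52, a surface glycoprotein of lymphocytes, was at 6562 CPM against 545 CPM and was seen in 96.9% of barcodes. PTPRC (CD45), the phosphatase on all white blood cells, was at 1280 CPM, ARHGDIB at 2278 CPM and the actin regulator PFN1 at 2488 CPM. Of 8 antigen presentation genes, 4 passed 2-fold upwards, 1 downwards and 3 neither. B2M, the light chain of class I molecules, was at 5430 against 2158 CPM (ratio 1.33), and CD74, the class II invariant chain, at 1350 against 4777 CPM (ratio -1.82).

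Genes of acute stress and of the interferon response were mostly within 2-fold of the other cells, more of them lower than higher. Of 18 immediate-early and stress genes, 4 passed 2-fold upwards, 2 downwards and 12 neither, with a median ratio of -0.27. The interval lay below 0 for 10 of the 18 and above 0 for 4, where all genes gave 21.7% and 16.9%. The higher ones included DUSP2 (209 CPM) and NR4A2 (166 CPM), while FOS was at 2824 against 3453 CPM and JUN at 2357 against 2809 CPM. Of 16 interferon-stimulated genes, 1 passed 2-fold upwards (ISG20, 200 against 21.4 CPM), 6 downwards and 9 neither. Their interval lay below 0 for 7 of the 16 and above 0 for 1. A UMI of the proliferation genes MKI67 or TOP2A was seen in 9 barcodes (1.54%), whose median depth was 1564 UMIs.

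**Figure D4:**
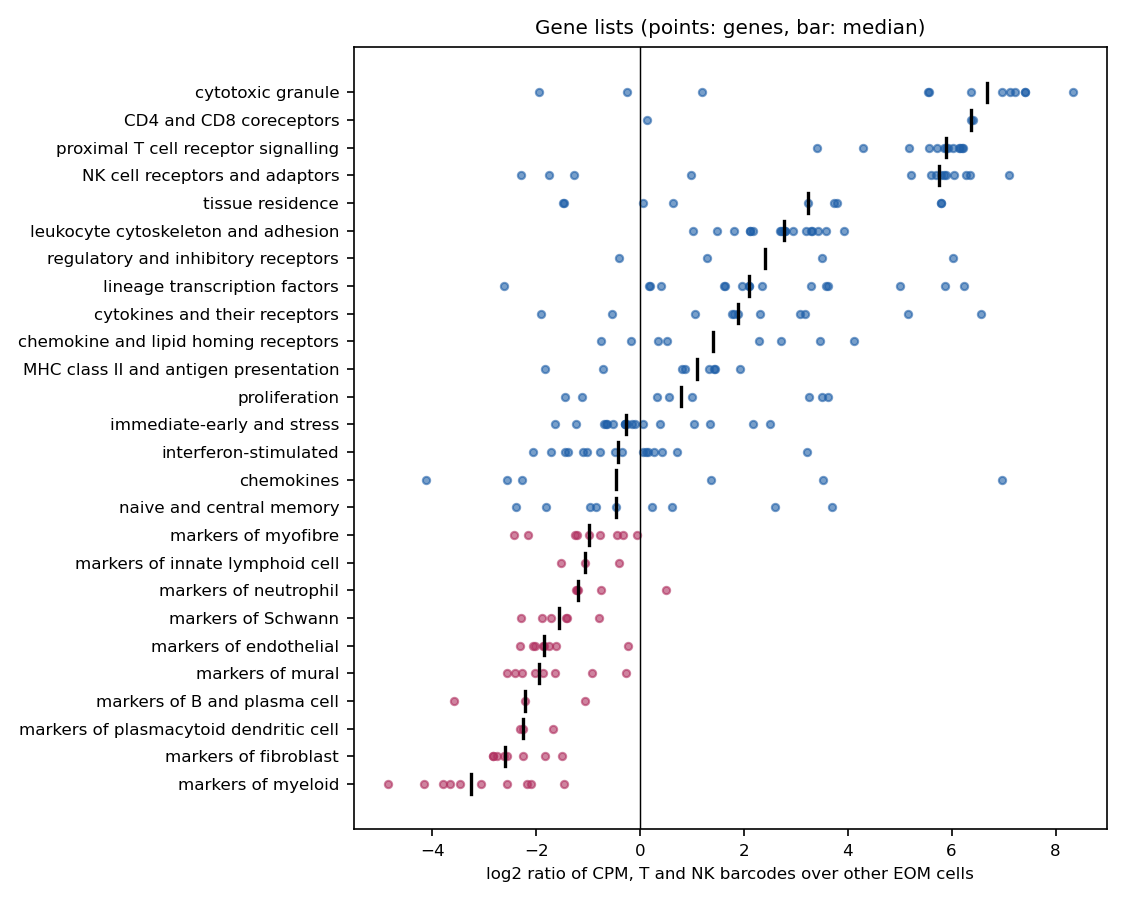
Log2 ratio of CPM, T and NK barcodes over the other EOM cells, for each compared gene of each list (points, rule genes left out) with the list's median (bar); role lists are blue and marker lists of other cell classes red. The granule genes have a median of 6.67 and the myeloid markers one of -3.26.

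The genes picked by size of ratio against the other cells repeated these groups. The 15 highest at 100 CPM or more included PRF1, GZMH, GNLY, KLRF1, PYHIN1, GZMM, CCL5, SPINK2, SH2D1A, CD8A, CD8B, GZMK, KLRK1, BCL11B and SIT1. SH2D1A, the SAP adaptor of lymphocyte receptors, was at 124 against 1.46 CPM, and SIT1, a receptor signalling inhibitor, at 109 against 1.46 CPM. SPINK2, a protease inhibitor, was at 215 against 2.08 CPM. The lowest were HBB, the beta globin of red cells (67.2 against 2045 CPM, ratio -4.93), the macrophage genes CSF1R, LYVE1, CXCL3, C1QA, C1QB and C1QC, and the matrix gene MFAP5. HBB was seen in similar shares, 5.13% of T and NK barcodes and 6.36% of the others, and 1 other barcode held 1593 of its UMIs.

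Against the 535 myeloid barcodes, another leukocyte class, chosen by its own markers, 1527 of 8129 genes were at least 2-fold higher (18.8%) and 1274 lower (15.7%). The median ratio over all genes was 0.24, and with that median set to 0 the counts became 1080 higher and 1564 lower, so the balance of directions turned. It also turned without the 58 barcodes that held markers of other classes, with 1446 higher and 1508 lower. The whole interval was past 2-fold for 432 genes higher (5.31%) and 626 lower (7.7%). The interval lay above 0 for 2236 genes (27.5%) and below 0 for 1378 (17%). The 13 signalling genes were again all at least 2-fold higher, with a median of 6.23. Here too the rule favoured these and the granule genes in advance. Of the granule genes 9 of 12 were higher and 2 lower, and SRGN, the granule proteoglycan, was nearly level at 1721 against 1825 CPM. CLEC2D, a ligand of KLRB1, was at 502 against 5.51 CPM. KLRF1 was at 344 CPM against 0 UMIs in the myeloid barcodes, which allows up to 2.36 CPM. Of the 18 leukocyte movement genes 8 were at least 2-fold higher and none lower, with CD52 2.53-fold higher. None of the 18 immediate-early and stress genes was at least 2-fold higher and 8 were lower, NFKBIA at 699 against 2521 CPM.

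Between CD3 positive and CD3 negative barcodes, the ratios of both CD8 genes and of every compared signalling gene but CD7 had intervals that included 0. Of 3794 genes, 586 were at least 2-fold higher in CD3 positive (15.4%) and 290 lower (7.64%), but with only 47071 UMIs in the CD3 negative class most of these intervals included 0: the interval lay above 0 for 73 genes (1.92%) and below 0 for 129 (3.4%). The whole interval was past 2-fold for 7 genes higher (0.185%), of which 3 were the CD3 genes of the rule, and for 10 lower (0.264%). Among 13 signalling genes 0 were at least 2-fold higher and 1, CD7, was lower, with a median of -0.16. CD8A was at 399 CPM in CD3 positive and 489 CPM in CD3 negative barcodes (ratio -0.29, -0.92 to 0.40), and CD8B at 270 and 446 CPM (-0.72, -1.40 to 0.02). CD8 was seen in 30 of 64 CD3 negative barcodes (46.9%) and in 39.7% of CD3 positive barcodes. LAT was at 527 and 467 CPM, and BCL11B at 111 and 191 CPM. These intervals do not show that the classes were alike.

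The 2 constant region features stayed within 2-fold between the classes. LOC102133263 was at 1686 CPM in CD3 positive and 1126 CPM in CD3 negative barcodes (ratio 0.58, 0.18 to 1.01). LOC102137723 was at 980 and 935 CPM (0.07, -0.38 to 0.55).

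A few genes were higher in the CD3 negative class, among them Fc receptor genes. Of 13 genes of the NK receptor list, 3 were at least 2-fold higher in CD3 negative barcodes (FCGR3A, FCER1G and NCR3), 1 lower and 9 neither. FCGR3A was at 19.6 CPM (9 UMIs) in CD3 positive and 319 CPM (15 UMIs) in CD3 negative barcodes, a ratio of -4.02 (-5.40 to -2.74). FCER1G was at 137 and 595 CPM (-2.12, -2.78 to -1.42), and was seen in 4.03% and 15.6% of barcodes against 4.44% in endothelial barcodes. TYROBP was at 638 and 1168 CPM (-0.87, -1.29 to -0.43), and GNLY at 1155 and 2464 CPM (-1.09, -1.39 to -0.79). CD7, a surface protein of both lineages, was at 39.2 and 191 CPM from 18 and 9 UMIs. Those 9 UMIs lay in 4 barcodes, 5 of them in 1 barcode. After thinning to 500 UMIs the ratio of CD7 was -1.54 (-3.09 to 0.29), an interval that included 0. CCL5 was at 4104 and 6097 CPM (-0.57, -0.75 to -0.39). KLRF1 was at 353 and 255 CPM (0.47, -0.37 to 1.45), and GZMH at 1237 and 1466 CPM (-0.24, -0.61 to 0.14). CD3 negative barcodes had to pass on the other 5 rule genes alone, which can favour killer-cell genes in that class. With the same demand on CD3 positive barcodes, 378 were left. The ratios were then -3.75 for FCGR3A, -2.09 for FCER1G, -0.91 for TYROBP and -3.01 for CD7. GNLY was at -0.95 (-1.25 to -0.64), CCL5 at -0.52, KLRF1 at 0.50 and GZMH at -0.13. CD8B was at -0.79 (-1.49 to -0.03), an interval that no longer included 0, and CD8A at -0.17 (-0.81 to 0.54). With all barcodes thinned to 500 UMIs instead, CD8B was at -0.72 (-1.48 to 0.13).

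The FCGR3A value came from few barcodes. Of its 15 UMIs, 14 lay in 2 CD3 negative barcodes with 7 each, of 2455 and 892 UMIs in depth. These held 13 and 2 UMIs of FCER1G, 7 and 9 of TYROBP and 10 and 11 of GNLY, 0 of the myeloid genes LYZ and CD14, and 1 constant region UMI each. Without these 2 barcodes, a comparison chosen after seeing the data, FCGR3A had 1 UMI in CD3 negative barcodes (ratio -0.22, -3.07 to 5.23) and FCER1G a ratio of -1.12 (-1.99 to -0.13). TYROBP moved to -0.48 (-0.97 to 0.04) and GNLY to -0.91 (-1.23 to -0.58).

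Besides the 3 CD3 genes, the 4 genes with the whole interval past 2-fold in CD3 positive barcodes were S100A8, G0S2, MYL1 and GPR183. S100A8, a neutrophil and monocyte protein, gave 152 UMIs against 1, but 81 were in 1 barcode, and G0S2 gave 180 against 2, with 44 in 1 barcode. MYL1, a myosin light chain of muscle fibres, gave 139 UMIs against 0. Markers of neutrophils summed to 505 CPM in CD3 positive and 42.5 CPM in CD3 negative barcodes, and those of myofibres to 290 and 42.5 CPM; their part in these ratios was not tested. CD74 had a ratio of 0.92 (0.43 to 1.46) that became -0.27 (-0.85 to 0.37) without barcodes that held markers of other classes, and for G0S2 the ratio of 3.21 became 1.45. GPR183, a receptor that guides lymphocytes and is also found in macrophages, gave 83 UMIs (181 CPM) against 0, which allows up to 63.7 CPM.

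**Figure D5:**
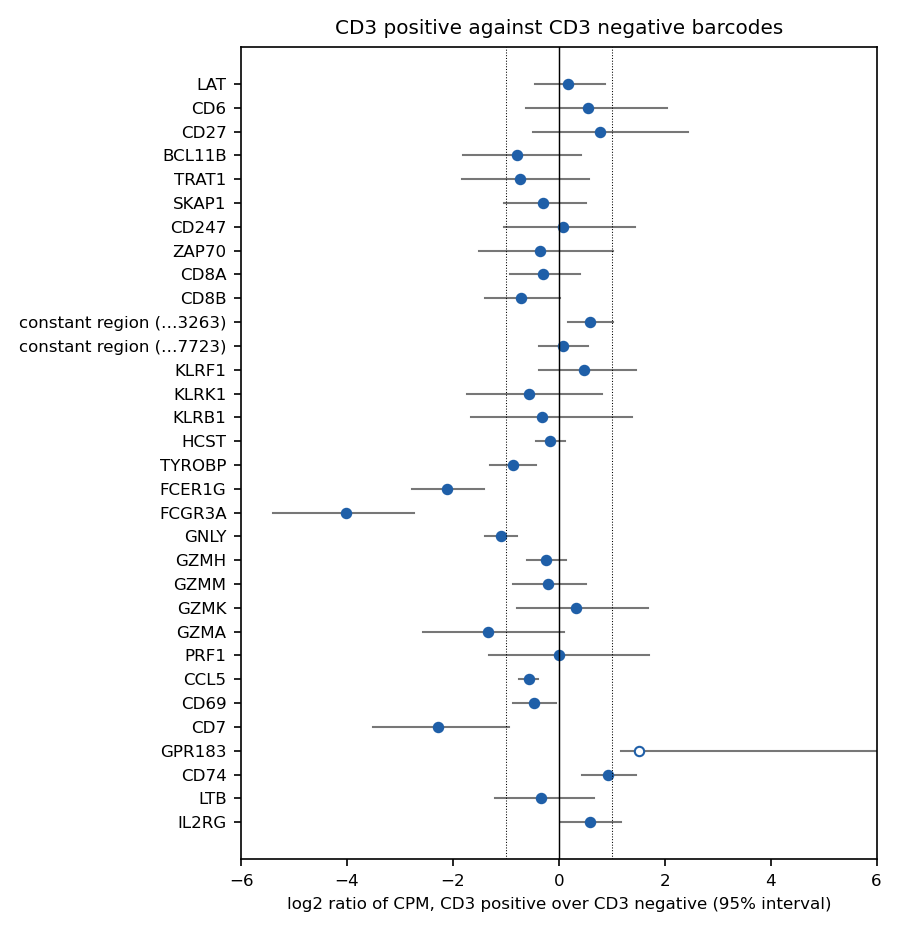
Log2 ratio of CPM, CD3 positive over CD3 negative barcodes, with 95% intervals of counting error; dotted lines mark 2-fold, and the open symbol is a lower bound against 0 UMIs. The intervals of LAT, BCL11B, CD8A and CD8B include 0, while FCGR3A, at -4.02, CD7, at -2.29, and FCER1G, at -2.12, are lower in CD3 positive barcodes. The FCGR3A and CD7 values came from few CD3 negative barcodes.

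The rule left out some like barcodes. When all kept barcodes were clustered on their expression, 1 of 22 clusters held 555 of the 585 T and NK barcodes (94.9%) with 102 barcodes outside the rule, 19 of which had no rule-gene UMI. The other 30 T and NK barcodes lay in other clusters and were deeper, with a median of 1614.5 UMIs. As a description, the 102 held more RNA of resting lymphocytes than the 555: LTB was at 828 against 206 CPM, and IL7R at 183 against 53.8 CPM. TCF7 was at 73.1 against 13.5 CPM and LEF1, another factor of naive cells, at 85.2 against 6.73 CPM. CCL5 was lower in them (2070 against 4656 CPM), as was GZMH (511 against 1390 CPM). The 102 had failed a rule that counts GZMB, NKG7, KLRD1 and T cell genes, so less killer-cell RNA was favoured in them in advance. NKG7 was at 170 against 1923 CPM and GZMB at 755 against 3959 CPM. How far the rule made these differences, those of the resting-cell genes among them, was not tested. CD8A was at 244 against 448 CPM and CD8B at 292 against 298 CPM. CD4 gave 1 UMI in the 102 and FOXP3 gave 0.

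By the same rule, with at most 10% mitochondrial UMIs, 87 of 16473 EOM nuclei (0.528%, interval 0.423% to 0.651%) and 31 of 12391 QFM nuclei (0.25%, 0.170% to 0.355%) were found. CD3 genes were seen in 65 and 25 of them. Markers of muscle fibres were also held by 83 of the 87 and 28 of the 31, against 6 of the 585 whole-cell barcodes. Cells and nuclei are different preparations with different denominators, so no direction between the shares is given. The EOM cells shared 0 barcodes with either nuclei library, and the 2 nuclei libraries shared 51.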

How the data were processed

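The authors deposited raw UMI counts per gene and barcode, per the file headers. Cell Ranger 7.2.0 and Seurat 5.2.1 appear, without a role, in the submitters' processing notes, while the whole-cell barcodes are 27 bases long. The genome build is not given in the sources used here. Features were named by the files, with 723 of 33368 named through NCBI gene numbers. Members and gene lists were chosen with earlier results of these data known. UMIs were summed per class and scaled to CPM. Genes with at least 20 UMIs were compared, a 0 was set to 3 counts as a bound, and bounds on the wrong side of 0 were left out (853 genes against other cells, 165 between CD3 classes). Called means at least 2-fold. Intervals are 95% exact ones. They were tested on simulated sums drawn with counting error only, so the test does not cover UMIs that gather in few barcodes. Genes were named by list, and by rule: the 15 highest and 8 lowest ratios against other cells, and 12 each way in the other comparisons; not all are printed. Clustering (Leiden, resolution 1) and Scrublet used scanpy 1.11.5 and Python 3.11.15. Myeloid and endothelial barcodes held at least 3 UMIs over 2 of their markers, and endothelial barcodes were not also myeloid. Alternatives covered the filters, the rule threshold, scaling, thinning, doublets and mixed barcodes. The file names of the QFM library speak of cells and its title of nuclei; it was treated as nuclei. Some genes are not reported here.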

Additional observations from a re-analysis of the deposited data

How the results depend on the processing

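No paired analysis was possible because each group has 1 library. Counting error is the only error shown, and at a median of 692 UMIs a missing UMI says little about a gene. A limit of 10% mitochondrial UMIs left 221 T and NK barcodes. It gave 680 genes higher and 689 lower against myeloid barcodes, 152 and 172 between the CD3 classes (of 202 and 19 barcodes), and 84 CD8 and 4 CD4 barcodes. The CD3 positive share was 92.2% at 5 rule UMIs, 85.5% without the CD3 genes in the rule and 76.2% after thinning. Requiring the whole interval past 2-fold gave 613 and 834 genes against other cells, 432 and 626 against myeloid barcodes, and 7 and 10 between the CD3 classes. Against myeloid barcodes, 2332 genes were higher at a minimum of 10 counts, 697 higher and 810 lower at 50, and 835 and 707 after thinning. Between the CD3 classes, 718 genes were lower at a minimum of 10 counts, 134 higher and 37 lower at 50, and 328 and 160 after thinning. There, 378 were higher at 5 rule UMIs, 184 lower without the CD3 genes in the rule, and 192 lower with CD3 positive set at 2 UMIs. In nuclei the rule found 151 EOM barcodes at 2 UMIs, and 33 EOM and 14 QFM at 5. IFIT3, at a ratio of 1.02 against myeloid barcodes, was at -0.0358 after thinning. The cause of these changes was not tested. Over all 3 comparisons, of 2493 gene ratios under alternatives, 2155 stayed within the interval of the reported value. Leaving out the 2 FCGR3A barcodes, and using only barcodes of the main cluster, were chosen after seeing the data.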
